A study of Chlamydomonas reinhardtii with 9 samples.

Results

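PHC1-rich cells are the cells of Chlamydomonas reinhardtii strain CC-5390 that held at least 3 unique molecular identifiers (UMIs, each 1 captured transcript) of PHC1 (Cre17.g717900, chromosome 17, 2693361 to 2696479, genome v5.5), a pherophorin gene. They were chosen by their measured PHC1 count among cells with at least 1000 UMIs, and were set against cells of the same library with 0 PHC1 UMIs (PHC1-0 cells). There were 5678 PHC1-rich and 25821 PHC1-0 cells among 40496 cells that passed the depth limit, beside 8997 cells with 1 or 2 PHC1 UMIs, and the series as a whole held 73141 cells in 9 libraries. CC-5390 (cw15 arg7-8::ARG7 MT+) is a cell wall-deficient strain of mating type plus. Its batch cultures grew in Tris Acetate Phosphate medium with acetate in constant light, and had spent 23 h either without iron (Fe−) or with 20 µM FeEDTA (Fe+) before Chromium single-cell 3′ libraries were made. Experiments 1 and 2 each gave 1 Fe− and 1 Fe+ library of CC-5390. Within each experiment the Fe− and Fe+ cultures came from a shared pre-culture, so the 4 libraries are not fully independent. Except in the fit without the replicate block, p-values rest on how much the difference between the classes within a library varied over the libraries fitted. They do not measure the spread of levels between libraries. The error of a gene is drawn in part from other genes, so it can be smaller than that gene's own variation over the libraries.

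The wall of a Chlamydomonas cell is built of hydroxyproline-rich glycoproteins and holds no cellulose. Pherophorins are secreted glycoproteins with a proline-rich rod between globular domains, and belong to this family together with the vegetative wall proteins of the VSP type. Strains with cw15 release much of this material into the medium instead of assembling a complete wall, and wall protein genes in Chlamydomonas are known to respond to wall removal and to gamete formation.

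The share of PHC1-rich cells differed widely among the 4 libraries. In experiment 1 it was 32.1% in the Fe− library (3053 of 9511 cells) and 10.8% in the Fe+ library (1255 of 11674). In experiment 2 it was 6.79% in the Fe− library (551 of 8110) and 7.31% in the Fe+ library (819 of 11201). The exact Clopper-Pearson 95% intervals, which cover counting error only, were 31.2% to 33.0% for Fe− and 10.2% to 11.3% for Fe+ in experiment 1, and 6.26% to 7.36% for Fe− and 6.84% to 7.81% for Fe+ in experiment 2. The 2 experiments thus did not share a direction between Fe− and Fe+. PHC1 made up 859 UMIs per 1000000 (CPM) in the Fe− and 310 CPM in the Fe+ library of experiment 1, and 105 CPM in the Fe− and 211 CPM in the Fe+ library of experiment 2. These levels are a description, since PHC1 chose the cells.

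Depth enters this share. When every cell was thinned to 1000 UMIs, 13.9% of Fe− and 4.21% of Fe+ cells still held 3 or more PHC1 UMIs in experiment 1, and 0.345% of Fe− and 1.88% of Fe+ cells in experiment 2. The 4 libraries held 32077582 to 52436795 UMIs in all. The Fe− library of experiment 2 was the deepest per cell, with a median of 5843 UMIs, against 2197 to 2574.5 in the other 3. Within the PHC1-rich class, the median cell held 6 PHC1 UMIs in the Fe− and 5 in the Fe+ library of experiment 1, and 4 in the Fe− and 5 in the Fe+ library of experiment 2. The highest counts were 78 and 38 UMIs in the Fe− libraries and 71 and 55 in the Fe+ libraries of experiments 1 and 2. PHC1-rich cells held from 47.9% (Fe−, experiment 2) to 87.9% (Fe−, experiment 1) of all PHC1 UMIs of their library. The bars of PHC1 classes show that cells with 10 or more UMIs were common in the Fe− library of experiment 1 and rare in the others.

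**Figure D1:**
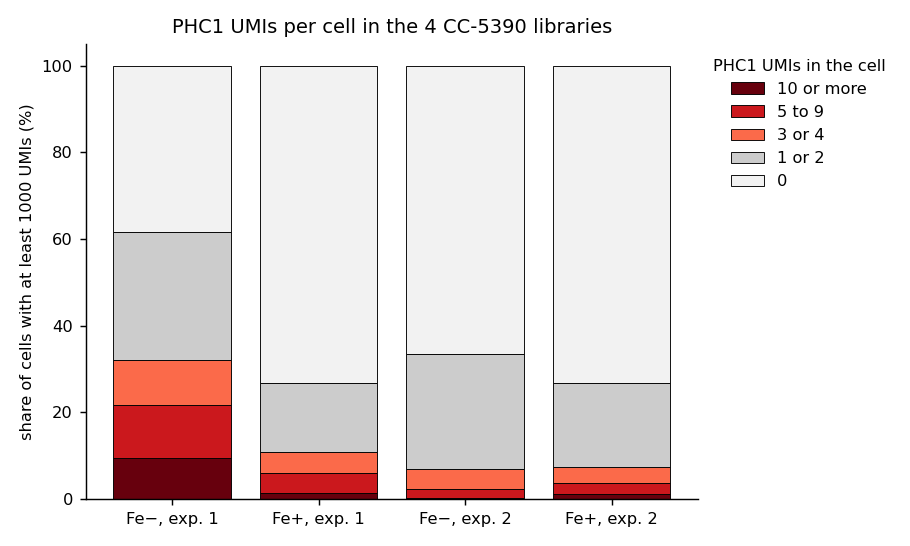
Share of cells with at least 1000 UMIs (%) by the number of PHC1 UMIs in the cell, stacked for the Fe− and Fe+ libraries of experiments (exp.) 1 and 2. PHC1-rich cells (3 or more UMIs, red shades) made up 32.1% of Fe− cells in experiment 1 and 6.79% to 10.8% in the other 3 libraries.

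The threshold cut through a continuous range of measured counts. Cells with exactly 3 PHC1 UMIs numbered 546 and 249 in the Fe− and 357 and 247 in the Fe+ libraries (experiments 1 and 2), and cells with exactly 2 numbered 938 and 601 in the Fe− and 506 and 480 in the Fe+ libraries. The 8 other wall protein genes named by the study's lists summed to 3114 and 1349 CPM (Fe−) and 2690 and 1542 CPM (Fe+) in cells just inside, against 2106 and 1020 CPM (Fe−) and 1948 and 1192 CPM (Fe+) in cells just outside. PHC1-rich cells were the upper range of these counts. Whether the PHC1 level behind the counts is itself graded was not tested. No cell type in these cultures is known to lack PHC1, so the share of cells with a PHC1 UMI from free RNA was not measured.

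To compare the classes, cells were matched on depth within each library and their UMIs were summed per gene, with PHC1 left out. This gave 2519, 1255, 551 and 818 cells of each class in Fe− and Fe+ of experiment 1 and in Fe− and Fe+ of experiment 2. Of 9776 genes tested with edgeR, 678 (6.94%) were higher and 614 (6.28%) were lower in PHC1-rich cells at an adjusted p under 0.05. Of these, 603 were higher and 566 lower in all 4 libraries on the TMM scale, and 670 and 359 by CPM, while 33.8% of all genes tested had 1 direction in all 4 on the TMM scale. More than 2-fold increases were found for 375 genes and more than 4-fold increases for 79, beside 185 and 6 genes that fell by as much. Leaving out 1 library moved these counts: 435 genes were higher and 359 lower without the Fe+ library of experiment 1, 454 and 340 without the Fe+ library of experiment 2, 483 and 248 without the Fe− library of experiment 1, and 722 and 516 without the Fe− library of experiment 2.

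The balance of the 2 directions depended on the scaling. edgeR's TMM factors placed the median gene at a log2 fold change of −0.04. When summed UMIs were scaled by library totals alone (CPM), the median gene stood at 0.28, and 1655 genes were called higher and 167 lower. All 678 genes called higher under TMM were also called higher with CPM, and the 167 called lower were among the 614. Counts of list genes with CPM scaling below are to be read against 1655 higher and 167 lower of 9776 genes, and list medians against 0.28. Matched cells of the PHC1-rich class also held more genes per cell, with 912 and 1108 genes in the Fe− and 847 and 807 in the Fe+ libraries (experiments 1 and 2), against 815 and 871 (Fe−) and 795 and 673 (Fe+) in PHC1-0 cells. The part of this difference in the fold changes was not tested. Fold changes over the 4 libraries are on the TMM scale unless CPM is named, and levels and log2 ratios in single libraries are of CPM.

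Of the 8 wall protein genes, 7 were higher in PHC1-rich cells and none was lower, with a median log2 fold change of 3.10 (3.44 with CPM scaling). These genes were picked because the study or its lists name them, and 7 of 8 is to be read against 6.94% of all genes. The 2 shares are not fully alike, since the wall genes had a median of 9171 UMIs over the 8 sums, against 382 for all genes tested. Photosynthesis, chloroplast ribosomal and cytosolic ribosomal protein genes, given below, had medians of 11089, 6953 and 289630. PHC28 (Cre17.g717950, a pherophorin gene at chromosome 17, 2698091 to 2702210, the neighbour of PHC1) had the highest level of the 8 in PHC1-rich cells of each library. It stood at 2691 and 782 CPM in the Fe− and 1129 and 679 CPM in the Fe+ libraries (experiments 1 and 2) in PHC1-rich cells, against 245 and 191 CPM (Fe−) and 41.0 and 28.5 CPM (Fe+) in PHC1-0 cells. All 4 PHC1-rich sums were above all 4 PHC1-0 sums. The log2 fold change was 3.37 ± 0.36 (SE, edgeR adjusted p = 1.12e-05). Reads shared by near-identical pherophorin genes may be split between them or dropped in counting, which makes the values of PHC28 beside PHC1 uncertain.

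PHC21 (Cre02.g094450, chromosome 2, 2808946 to 2813363) is another pherophorin gene. In PHC1-rich cells it had 966 and 275 CPM in the Fe− and 805 and 633 CPM in the Fe+ libraries, against 151 and 51.7 CPM (Fe−) and 33.4 and 35.9 CPM (Fe+) in PHC1-0 cells. The groups did not overlap, and the log2 fold change was 3.09 ± 0.31 (edgeR adjusted p = 6.00e-06). VSP3 (Cre12.g488450, chromosome 12, 1359264 to 1361787), which encodes a serine- and proline-rich wall protein, had 1182 and 398 CPM (Fe−) and 591 and 621 CPM (Fe+) in PHC1-rich cells, against 120 and 96.8 CPM (Fe−) and 18.9 and 37.5 CPM (Fe+) in PHC1-0 cells. Its difference was 3.22 ± 0.35 (edgeR adjusted p = 1.41e-05), again without overlap.

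VSP1 (Cre11.g467710, chromosome 11, 1292715 to 1295811), of the same family of wall proteins, showed the largest difference of the 8. It had 457 and 64.2 CPM (Fe−) and 313 and 153 CPM (Fe+) in PHC1-rich cells, against 36.4 and 7.98 CPM (Fe−) and 14.2 and 9.24 CPM (Fe+) in PHC1-0 cells, a log2 fold change of 3.49 ± 0.24 (edgeR adjusted p = 1.29e-07). GAS28 (Cre11.g481600, chromosome 11, 3554838 to 3557651) encodes a hydroxyproline-rich glycoprotein first known from gametes. It had 732 and 204 CPM (Fe−) and 400 and 326 CPM (Fe+) in PHC1-rich cells, against 81.3 and 18.5 CPM (Fe−) and 39.7 and 22.0 CPM (Fe+) in PHC1-0 cells. Its log2 fold change of 3.12 ± 0.18 had the smallest error of the 8 (edgeR adjusted p = 1.07e-08), and the SD of its log2 ratio over the 4 libraries, 0.30, was the smallest.

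The last 3 were pherophorin genes of lower level. PHC71 rose by a log2 fold change of 2.87 ± 0.31 (edgeR adjusted p = 1.12e-05) and PHC5 by 1.84 ± 0.24 (edgeR adjusted p = 7.94e-05). PHC5 was higher in the Fe+ than in the Fe− library of both experiments in both classes, with 198 and 119 CPM (Fe+) beside 30.0 and 28.1 CPM (Fe−) in PHC1-rich cells. The other 7 were lower in the Fe+ library in experiment 1 and went both ways in experiment 2. PHC76 had 3.65 and 4.12 CPM (Fe−) and 1.37 and 1.63 CPM (Fe+) in PHC1-rich cells, against 5.63 and 2.57 CPM (Fe−) and 1.91 and 3.26 CPM (Fe+) in PHC1-0 cells, and did not pass the test (log2 fold change −0.68 ± 0.29, edgeR adjusted p = 0.138). The plot of wall protein genes shows 7 genes with lower levels in PHC1-0 cells in each library and the crossed lines of PHC76.

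**Figure D2:**
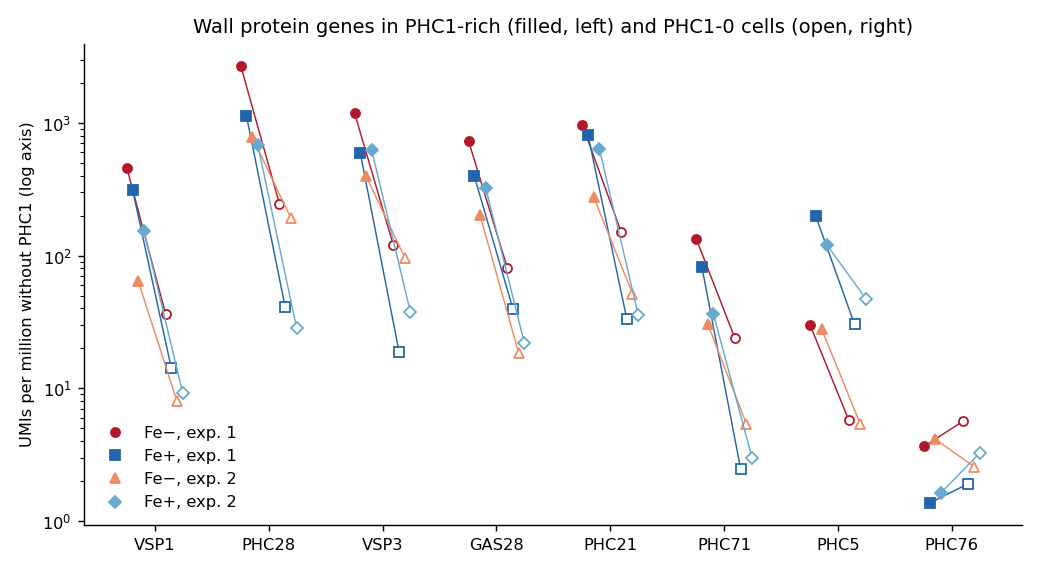
Level of each wall protein gene in UMIs per 1000000 without PHC1 (log axis) in PHC1-rich cells (filled, left) and depth-matched PHC1-0 cells (open, right), with a line joining the 2 classes of each library; exp., experiment. In 7 of the 8 genes every library was higher in PHC1-rich cells, and PHC76 was higher in 1 of 4.

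More of these genes were detected per cell in the PHC1-rich class. Whether they occurred together more often than their single detection rates give was not tested. Of 8 wall genes, the median PHC1-rich cell held UMIs of 4 and 3 in the Fe− and 3 and 3 in the Fe+ libraries (experiments 1 and 2), against 1 and 1 (Fe−) and 0 and 0 (Fe+) in depth-matched PHC1-0 cells. At least 4 of the 8 were detected in 73.4% and 43.9% (Fe−) and 48.0% and 49.8% (Fe+) of PHC1-rich cells, against 5.80% and 4.36% (Fe−) and 0.319% and 1.96% (Fe+) of PHC1-0 cells. VSP3 was detected in 89.8% of PHC1-rich cells (95% interval 88.5% to 90.9%, counting error only), against 27.6% of PHC1-0 cells (25.8% to 29.3%), in the Fe− library of experiment 1. In the Fe+ library of experiment 1 these shares were 60.3% of PHC1-rich cells (57.6% to 63.0%) and 5.02% of PHC1-0 cells (3.88% to 6.38%). PHC1-rich cells still varied among themselves. In the Fe− library of experiment 1, the 8 genes made up 16.5, 63.6 and 140 UMIs per 10000 at the 10th, 50th and 90th percentiles of PHC1-rich cells, against 0, 4.78 and 20.1 in PHC1-0 cells.

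Across finer classes of PHC1, the wall genes kept climbing. In the Fe− library of experiment 1, the 8 genes summed to 644, 1501, 3633, 5749 and 8798 CPM in cells with 0, 1 or 2, 3 or 4, 5 to 9 and 10 or more PHC1 UMIs. In the Fe+ library of experiment 1 the sums were 178, 1108, 2677, 3455 and 5826 CPM. In experiment 2 they ran over 382, 766, 1431, 2142 and 3961 CPM (Fe−) and over 190, 653, 1582, 2663 and 4439 CPM (Fe+). Every step was upward in all 4 libraries, although the highest class held only 20 cells in the Fe− library of experiment 2 and was deeper per cell in each library than the class of 0. These sums are not depth-matched.

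**Figure D3:**
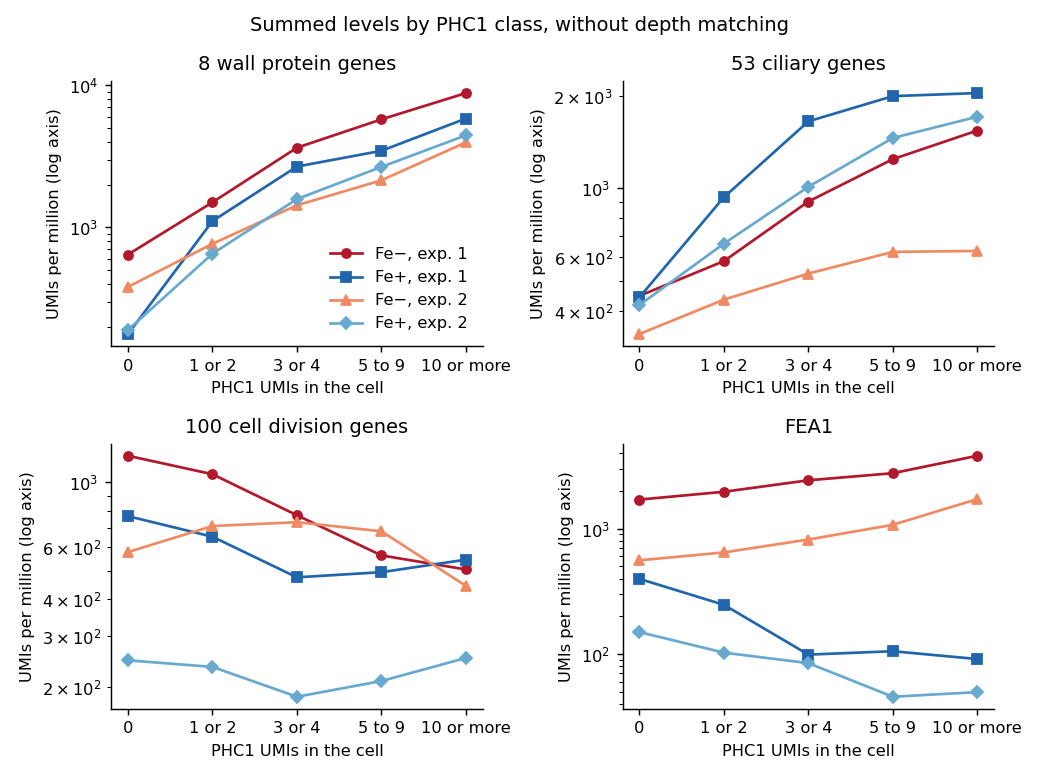
Summed UMIs per 1000000 without PHC1 (log axes) of the 8 wall protein genes, the 53 ciliary genes, the 100 cell division genes and FEA1, by the number of PHC1 UMIs in the cell, for the Fe− and Fe+ libraries of experiments (exp.) 1 and 2; 1 point is all cells of a class in a library. The wall genes rose over all classes in each library, and FEA1 ended higher than it began in the Fe− and lower in the Fe+ libraries.

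The largest increases were mostly in genes without a name in the sources used here. Cre11.g481750 led with a log2 fold change of 5.01 ± 0.28 (edgeR adjusted p = 8.04e-09). In PHC1-rich cells it had 136 and 21.4 CPM (Fe−) and 68.3 and 53.9 CPM (Fe+), against 4.07 and 0.257 CPM (Fe−) and 0.547 and 2.18 CPM (Fe+) in PHC1-0 cells, where 2 of the 4 sums were 1 or 2 UMIs. It lay at chromosome 11, 3571847 to 3575932. Next came Cre09.g388353 at 4.86 ± 0.25 (edgeR adjusted p = 4.83e-09) and Cre09.g388355 at 4.55 ± 0.24 (edgeR adjusted p = 4.83e-09), which are neighbours at chromosome 9, 2901591 to 2904798 and 2905893 to 2909768. Cre09.g388351, close by at 2893511 to 2896174, rose by 4.02 ± 0.22 (edgeR adjusted p = 8.04e-09). It had 859 and 136 CPM (Fe−) and 356 and 373 CPM (Fe+) in PHC1-rich cells, against 47.1 and 10.3 CPM (Fe−) and 14.5 and 12.8 CPM (Fe+) in PHC1-0 cells.

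GOX19 (Cre16.g657250) rose by a log2 fold change of 4.38 ± 0.31 (edgeR adjusted p = 1.67e-07), with 57.9 and 4.64 CPM (Fe−) and 89.1 and 8.16 CPM (Fe+) in PHC1-rich cells, against 2.40 and 0.772 CPM (Fe−) and 2.19 and 0.544 CPM (Fe+) in PHC1-0 cells. FAP212 (Cre02.g077850), named as a flagellar associated protein, closed the list of 15 at 3.14 ± 0.26 (edgeR adjusted p = 6.25e-07). Between them stood Cre08.g365100, Cre08.g370900, Cre07.g354750, Cre17.g714800, Cre11.g467539 and Cre02.g080600 at log2 fold changes of 3.34 to 3.53, with VSP1, PHC28 and VSP3. Cre02.g080600 was the least even of these, with log2 ratios of CPM of 1.87 and 3.71 in the Fe− and 7.05 and 4.62 in the Fe+ libraries, the highest of them against a PHC1-0 sum of 1 UMI.

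Some genes called higher lay side by side. Of the 678, 94 (13.9%) were next to another of them in the v5.5 gene order, while 796 of 9689 genes tested with a position (8.22%) were next to one. In 6 places 3 neighbours in a row were called. On chromosome 2, Cre02.g080600 was followed by Cre02.g080650 (log2 fold change 1.81) and Cre02.g080700 (1.69), and on chromosome 16, Cre16.g687742 (3.03) by Cre16.g687854 (1.78) and Cre16.g687966 (1.05). Reads that run past a gene's end may be counted for its neighbour, and overlap was not checked.

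Genes of the cilium were higher as a group. Cilia of Chlamydomonas carry motile axonemes with radial spokes, dynein arms and nexin links, served by intraflagellar transport. Among the genes named IFT, FAP, BBS, DRC, RSP, ODA or IDA with a number in the study's lists, 46 of 53 were tested, of which 31 were higher and none lower (6.94% and 6.28% of all genes tested), with a median log2 fold change of 0.99 (1.30 and 43 called with CPM scaling) beside −0.04 for all genes. Most of these names come from the list of genes expressed in nitrogen-replete cells, so they are not a full list of ciliary genes, and the source of the names was chosen after values were known. In 22 of 46 the direction was upward in all 4 libraries. Summed over the 53 genes, their share of UMIs was 0.124% and 0.0564% (Fe−) and 0.186% and 0.132% (Fe+) in PHC1-rich cells, against 0.0447% and 0.0344% (Fe−) and 0.0453% and 0.0445% (Fe+) in PHC1-0 cells. The Fe− library of experiment 2 gave the smallest ratio, 1.64, against 2.77 to 4.10 in the others. Without the Fe+ library of experiment 1, 16 ciliary genes were called, without the Fe+ library of experiment 2 19, without the Fe− library of experiment 1 20 and without the Fe− library of experiment 2 43.

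DRC4, a subunit of the nexin-dynein regulatory complex, had 12.9 and 14.2 CPM (Fe−) and 20.8 and 23.9 CPM (Fe+) in PHC1-rich cells, against 5.11 and 5.92 CPM (Fe−) and 5.20 and 7.88 CPM (Fe+) in PHC1-0 cells. Its log2 fold change was 1.20 ± 0.21 (edgeR adjusted p = 0.00105). The groups did not overlap. RSP16, a radial spoke protein, rose by 1.23 (edgeR adjusted p = 0.00189), IFT172, a subunit of the transport trains, by 1.06 (edgeR adjusted p = 0.0124) and FAP138 by 2.01 (edgeR adjusted p = 0.00110). FAP23 and FAP154, at −0.21 and −0.19, did not pass the test. These examples were chosen after their values were seen, as were the next.

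In the same list of nitrogen-replete genes, MMP29, a matrix metalloproteinase gene of the gametolysin family, had 154 and 322 CPM (Fe−) and 93.7 and 57.7 CPM (Fe+) in PHC1-rich cells, against 41.7 and 171 CPM (Fe−) and 11.2 and 10.3 CPM (Fe+) in PHC1-0 cells, a log2 fold change of 1.66 ± 0.28 (edgeR adjusted p = 0.000989). PFH10, named as a prolyl 4-hydroxylase, the type of enzyme that makes hydroxyproline, had 62.1 and 38.4 CPM (Fe−) and 57.4 and 26.9 CPM (Fe+) in PHC1-rich cells, against 12.2 and 16.0 CPM (Fe−) and 13.1 and 6.80 CPM (Fe+) in PHC1-0 cells. It rose by 1.62 ± 0.22 (edgeR adjusted p = 0.000142), and within each library its level was higher in PHC1-rich cells. In that list as a whole, 43 of 127 genes tested were higher and 16 lower, with a median of 0.36, beside 6.94% and 6.28% of all genes. With CPM scaling 65 were higher and 4 lower, with a median of 0.70. Without the Fe+ library of experiment 1, 24 were higher and 8 lower, and without the Fe+ library of experiment 2, 28 and 4. Most of those that rose were ciliary genes, and among those that fell were the antenna genes LHCA2, LHCA4 and LHCA9. Of 64 genes induced without nitrogen, none was higher and 3 were lower, a share not above that of all genes. With CPM scaling 5 were higher and 1 lower, beside 1655 and 167 of all 9776 genes.

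**Figure D4:**
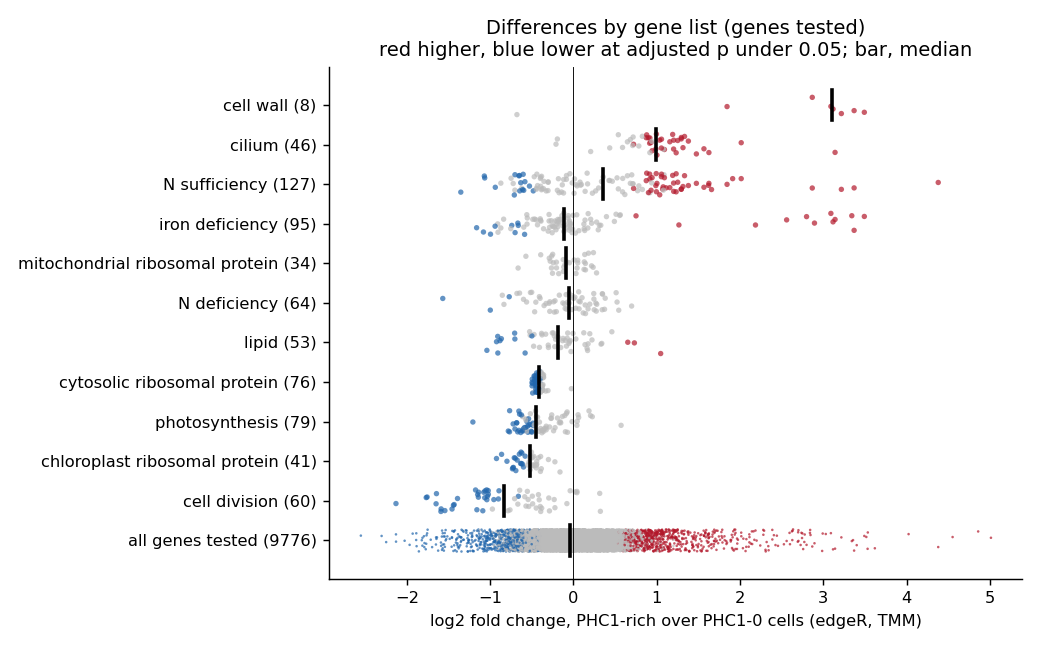
Log2 fold change of every gene tested, PHC1-rich over PHC1-0 cells (edgeR, TMM), by gene list, with the number tested in brackets; red points are higher and blue points lower at an adjusted p under 0.05, and the black bar is the list's median. The medians were 3.10 for the wall genes, 0.99 for the ciliary genes and −0.84 for the cell division genes, beside −0.04 for all genes.

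Genes of DNA replication and mitosis were lower. In the cell division list, 30 of 60 genes tested were lower and none higher, beside 6.28% and 6.94% of all genes, with a median log2 fold change of −0.84 (−0.56 and 17 lower with CPM scaling). SMC2, a condensin subunit, fell by 2.13 on the log2 scale (SE 0.35, edgeR adjusted p = 0.000708), with 1.88 and 2.06 CPM (Fe−) and 2.46 and 1.63 CPM (Fe+) in PHC1-rich cells, against 14.3 and 4.89 CPM (Fe−) and 3.83 and 2.99 CPM (Fe+) in PHC1-0 cells. MCM6, of the replicative helicase, stood at −1.77 ± 0.24 (edgeR adjusted p = 0.000152) and PCNA, the sliding clamp, at −1.07 ± 0.19 (edgeR adjusted p = 0.00115). Both were chosen after their values were seen.

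The list's summed share did not fall everywhere. It was 0.495 and 1.17 times that of PHC1-0 cells in the Fe− libraries and 0.657 and 0.728 times in the Fe+ libraries (experiments 1 and 2). Cells with at least 3 division-list UMIs made up 27.0% and 58.1% (Fe−) and 13.9% and 7.58% (Fe+) of PHC1-rich cells, against 44.6% and 50.6% (Fe−) and 22.5% and 10.6% (Fe+) of PHC1-0 cells, so the Fe− library of experiment 2 went the other way. Without the Fe− library of experiment 1, 4 of 49 division genes tested were called, and without the dividing cells 2 of 19 tested. The dividing cells were chosen by UMIs of this same list, so leaving them out removes its counts, and fewer calls were fixed in advance. With the dividing cells left out of both classes, 682 genes were higher and 501 lower in all, and 7 of the 8 wall genes and 36 of 40 ciliary genes tested were called higher.

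Photosynthesis and ribosomal protein genes leaned downward under TMM. Of 79 photosynthesis genes tested, 30 were lower and none higher (median −0.45), beside 6.28% and 6.94% of all genes, led by genes of light-harvesting proteins and of photosystem I. LHCBM1, an antenna protein of photosystem II, had 27218 and 13107 CPM (Fe−) and 25045 and 13172 CPM (Fe+) in PHC1-rich cells, against 33722 and 18088 CPM (Fe−) and 29697 and 18832 CPM (Fe+) in PHC1-0 cells (log2 fold change −0.72 ± 0.13, edgeR adjusted p = 0.00127). It was chosen after its values were seen. The list's share of UMIs was lower in all 4 libraries, at 0.937 and 0.791 (Fe−) and 0.862 and 0.742 (Fe+) of its share in PHC1-0 cells. With CPM scaling 8 photosynthesis genes were lower. Without the Fe+ library of experiment 2, 2 were lower, without the Fe− library of experiment 2, 16, and without the Fe+ library of experiment 1, 18.

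Cytosolic ribosomal protein genes were 45 of 76 lower (median −0.42), beside 6.28% of all genes, but with CPM scaling none of the 76 was called and the median was −0.07, and none was called without the Fe− library of experiment 1 or without the Fe+ library of experiment 2. Their share of UMIs was 51.0% and 58.6% (Fe−) and 36.7% and 57.3% (Fe+) in PHC1-rich cells, against 56.2% and 65.6% (Fe−) and 36.2% and 58.2% (Fe+) in PHC1-0 cells. Chloroplast ribosomal protein genes were 18 of 41 lower (median −0.53), 1 with CPM scaling, 9 without the Fe+ library of experiment 1, 5 without the Fe− library of experiment 2 and 2 without the Fe+ library of experiment 2. Their share of UMIs was 1.05 and 0.888 (Fe−) and 0.841 and 0.680 (Fe+) times that in PHC1-0 cells. Of 34 mitochondrial ribosomal protein genes none was called by edgeR. Among lipid genes, 3 of 53 were higher and 10 lower, beside 6.94% and 6.28% of all genes. With CPM scaling 6 were higher and 5 lower, and 5 and 6 were lower without the Fe+ library of experiment 1 or 2. The 10 included MCT1, KAR1, ENR1, BCC1 and BCC2, names of the plastid fatty acid synthesis pathway, at log2 fold changes of −1.04 to −0.88.

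The 10 largest decreases were led by Cre24.g755997, at −2.55 ± 0.27 (edgeR adjusted p = 1.12e-05). It had 30.6 and 5.15 CPM (Fe−) and 396 and 273 CPM (Fe+) in PHC1-rich cells, against 230 and 54.0 CPM (Fe−) and 990 and 917 CPM (Fe+) in PHC1-0 cells. It was lower in PHC1-rich cells in each library, and lower in Fe− than in Fe+ libraries within each class. The other 9, which were SMC2 and the unnamed genes Cre17.g708750, Cre13.g577352, Cre16.g688190, Cre16.g667850, Cre12.g537000, Cre10.g441250, Cre11.g483250 and Cre03.g157900, had 216 to 876 UMIs over the 8 sums and log2 fold changes of −2.30 to −1.86.

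Genes of the iron deficiency list were called in both directions. Of 95 tested, 12 were higher and 9 lower (6.94% and 6.28% of all genes), with a median log2 fold change of −0.12. With CPM scaling 20 were higher and 1 lower, with a median of 0.22. Over all 9776 genes that scaling gave 1655 higher, 167 lower and a median of 0.28. Without the Fe+ library of experiment 1 or 2, 4 were lower, and without the Fe− library of experiment 2, 5. The 12 that were higher included PHC21, PHC28, VSP1, GAS28, FAP212 and Cre02.g080600, already described, and Cre02.g095150 at 2.80 (edgeR adjusted p = 1.67e-07). The 9 that were lower included FOX1, the multicopper ferroxidase, at −1.16 ± 0.26 (edgeR adjusted p = 0.00700), and FRE1, a ferric reductase, at −1.08 ± 0.28 (edgeR adjusted p = 0.0188). They also included FEA2, an extracellular iron assimilation protein, at −0.94 ± 0.23 (edgeR adjusted p = 0.0141), and TEF22, whose gene lies beside FEA1, at −0.996 ± 0.28 (edgeR adjusted p = 0.0263). These 4 decreases were larger in the Fe+ libraries, where PHC1-rich cells held only 13 and 7 UMIs of FEA2 and 9 and 29 of TEF22. Log2 ratios of CPM of the 4 genes lay between −0.42 and 0.17 in the Fe− libraries. In the Fe+ libraries they lay between −2.41 and −1.35. With CPM scaling FEA2, FRE1 and TEF22 were no longer called (adjusted p = 0.0691, 0.0623 and 0.112). Leaving out the Fe+ library of experiment 1 also ended these calls (0.0542, 0.0778 and 0.0912 as edgeR adjusted p), and leaving out that of experiment 2 ended those of FRE1 and TEF22 (0.0900 and 0.111).

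FEA1, which encodes an extracellular iron assimilation protein, showed a class difference that depended on iron. In the Fe− libraries it had 3036 and 946 CPM in PHC1-rich cells, against 1806 and 632 CPM in PHC1-0 cells (experiments 1 and 2). In the Fe+ libraries it had 100 and 61.8 CPM in PHC1-rich cells, against 412 and 179 CPM in PHC1-0 cells. The log2 ratios of CPM were 0.75 and 0.58 in the Fe− libraries and −2.04 and −1.54 in the Fe+ libraries. On the TMM scale they were 0.55 and 0.064 in the Fe− libraries and −2.27 and −1.96 in the Fe+ libraries, so the Fe− library of experiment 2 showed next to no difference, and the class difference over all 4 was not called (log2 fold change −0.87 ± 0.36, edgeR adjusted p = 0.123). The test of the difference gave a log2 interaction of 2.43 ± 0.32 (edgeR adjusted p = 0.0333), and FEA1 was the 1 gene of 9776 (0.0102%) called for it, while 534 genes had an unadjusted p under 0.05 and DESeq2 called 25. In single cells, FEA1 was detected in 17.6% (15.5% to 19.8%) of PHC1-rich and 38.7% (36.0% to 41.5%) of PHC1-0 cells of the Fe+ library of experiment 1, and in 17.7% (15.2% to 20.5%) and 36.3% (33.0% to 39.7%) of these classes in experiment 2. By PHC1 class, it climbed over 1707, 1970, 2432, 2771 and 3817 CPM in the Fe− library of experiment 1, and ran over 398, 247, 98.8, 105 and 91.1 CPM in the Fe+ library. Without the Fe+ library of experiment 2 the interaction was 2.56 ± 0.52 and was not called (edgeR adjusted p = 0.147).

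The next 4 genes were those of smallest interaction p in this direction among genes with the same class direction in all 4 libraries (TMM scale). Genes whose class difference changed sign between libraries could not enter this choice. None of the 4 passed the test. FRE1 had 635 and 270 CPM in PHC1-rich cells of the Fe− libraries, against 683 and 259 CPM in PHC1-0 cells, and 6.56 and 6.80 CPM in PHC1-rich cells of the Fe+ libraries, against 23.2 and 26.4 CPM in PHC1-0 cells (interaction 1.84 ± 0.36, edgeR adjusted p = 0.217). FOX1 had an interaction of 1.57 ± 0.32 (edgeR adjusted p = 0.225), TEF22 of 1.75 ± 0.40 (edgeR adjusted p = 0.282) and the chloroplast gene CreCp.g010600 of 1.11 ± 0.33 (edgeR adjusted p = 0.601). FTR1, the iron permease that works with FOX1, MSD3, a manganese superoxide dismutase, CDJ3, a chloroplast J-domain protein, and CGLD27 did not pass the test for the class difference (log2 fold changes −0.40, 0.04, −0.04 and −0.56, edgeR adjusted p = 0.187, 0.931, 0.913 and 0.0678). The plot of iron-related genes shows the Fe+ libraries below the Fe− libraries in FEA1, FEA2, FRE1, FOX1, FTR1 and TEF22.

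**Figure D5:**
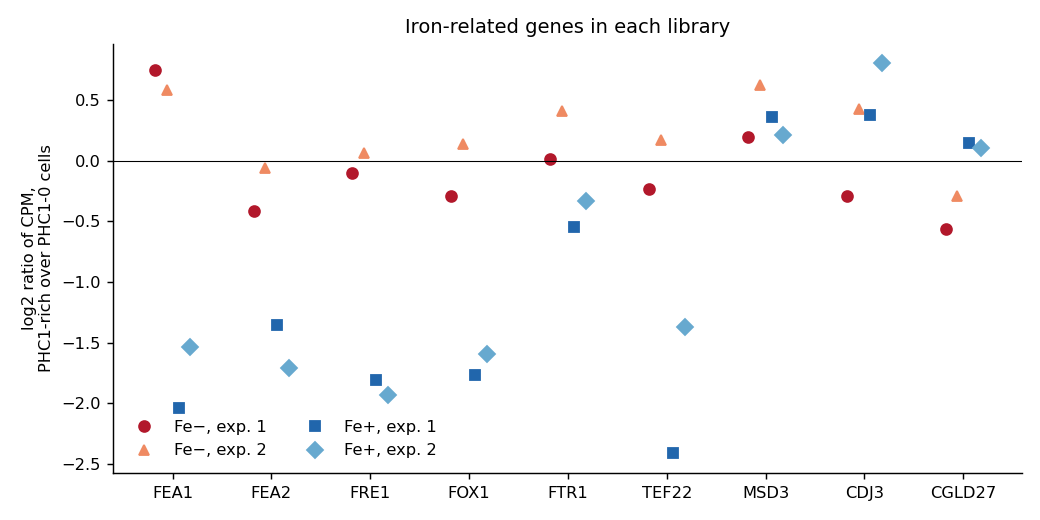
Log2 ratio of CPM, PHC1-rich over depth-matched PHC1-0 cells, of 9 iron-related genes in the Fe− and Fe+ libraries of experiments (exp.) 1 and 2; the line marks equal levels. FEA1 stood at 0.75 and 0.58 in the Fe− and at −2.04 and −1.54 in the Fe+ libraries.

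In the other direction, the 5 genes chosen by the same rule had a larger increase in the Fe+ libraries, and none of them was called. PHC21 had log2 ratios of 2.68 and 2.41 in the Fe− and 4.59 and 4.14 in the Fe+ libraries (interaction −1.84 ± 0.36, edgeR adjusted p = 0.217). Cre01.g013450 had 0.49 and 0.79 (Fe−) and 2.39 and 2.20 (Fe+), with an adjusted p of 0.217 by edgeR. Cre02.g115950, Cre10.g425850 and Cre07.g323500 had interactions of −2.24, −1.68 and −2.02 (edgeR adjusted p = 0.217, 0.225 and 0.225). PHC28, VSP3 and PHC71 leaned likewise, at −1.96, −1.83 and −1.86 (edgeR adjusted p = 0.366, 0.520 and 0.485), whereas GAS28 stood at −0.32.

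The remaining libraries of the series were not used to call genes. In each, PHC1-rich and PHC1-0 cells were taken by the same rule, and ratios of CPM are given with no test, set against the median of genes with at least 20 UMIs. In Mix, an equal mixture of the Fe− and Fe+ cultures of experiment 1 and thus not an independent culture, 675 of 678 genes called higher were above that median and 598 of 613 called lower were below it. In CC-4532, a strain with a cell wall and of mating type minus, 427 of 561 and 284 of 323 did so in the Fe− library (395 cells a class), and 229 of 253 and 200 of 213 in the Fe+ library (91 cells a class). By construction, about 50% of all genes lie on either side. In CC-5390 cells without nitrogen, with 98 cells a class over the technical duplicates, 252 of 458 and 182 of 300 did so. In experiment 1, PHC1-rich cells were 32.1% of Fe− and 10.8% of Fe+ cells, and PHC1-0 cells were 38.5% and 73.3%. Class and iron state therefore cannot be told apart in Mix, which held cells of both cultures.

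The median gene had a log2 ratio of 0.11 in Mix, 0.97 in CC-4532 Fe−, 0.87 in CC-4532 Fe+ and 0.088 without nitrogen. PHC21 had a log2 ratio of 3.39 in Mix, 3.75 in CC-4532 Fe−, 6.20 in CC-4532 Fe+ and 2.70 without nitrogen. GAS28 had 3.35 in Mix, 4.80 in CC-4532 Fe−, 6.15 in CC-4532 Fe+ and 2.19 without nitrogen. Of the wall genes with at least 20 UMIs, 7 of 8 were above the median gene in Mix (PHC76, at 0.070, was not), 7 of 7 in CC-4532 Fe−, 6 of 7 in CC-4532 Fe+ (PHC71, at 0.56 from 12 UMIs in PHC1-rich and 8 in PHC1-0 cells, was not) and 7 of 7 without nitrogen. FEA1 had 0.94 in Mix, 1.34 in CC-4532 Fe− and 0.71 in CC-4532 Fe+ (15 UMIs in PHC1-rich and 9 in PHC1-0 cells). In CC-4532 Fe+ this was below the median gene, and in Mix and CC-4532 Fe− above it. The ratio in Mix is not a class difference within an iron state, since Mix held Fe− and Fe+ cells. Without nitrogen the FEA1 ratio of −1.14 rested on 2 UMIs in PHC1-rich and 5 in PHC1-0 cells. That is under the limit of 20 UMIs, so it was not set against the median gene. Without thinning, PHC1-rich cells were a smaller share of CC-4532 than of the 4 CC-5390 libraries used for tests, with 4.54% of Fe− and 3.02% of Fe+ cells. Thinned to 1000 UMIs, the shares were 0.652% (Fe−) and 0.431% (Fe+). These were above the 0.345% of the CC-5390 Fe− library of experiment 2 and below the 1.88% to 13.9% of the rest.

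Doublets and shared barcodes were followed beside these results. The median Scrublet score was 0.0767 and 0.0798 (Fe−) and 0.0689 and 0.0914 (Fe+) in PHC1-rich cells, against 0.0678 and 0.0857 (Fe−) and 0.0979 and 0.0914 (Fe+) in PHC1-0 cells. No cells were removed as doublets in the comparison above. Without the 8% of cells of highest score in each library, 567 genes were higher and 457 lower, among them 7 wall genes. Between 52 and 85 barcodes of each of the 4 libraries also occurred in another library of its experiment, and without those cells 661 genes were higher and 564 lower.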

How the data were processed

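Chromium single-cell 3′ libraries of Chlamydomonas reinhardtii were used: 4 CC-5390 libraries (Fe− and Fe+ of experiments 1 and 2) for all tests, and Mix, CC-4532 Fe−, CC-4532 Fe+ and nitrogen-free CC-5390 for values only, with the technical duplicates of the last summed. The authors deposited whole-number UMI counts per gene and cell for 17893 genes, made with Cell Ranger 3.0.2 on genome v5.5. Of these genes, 17738 were found in the RefSeq table of v5.5, which gave positions and no gene names or sequences.

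Cells had at least 1000 UMIs. Within each library, PHC1-rich cells (3 or more PHC1 UMIs) and PHC1-0 cells were binned by log2 UMIs without PHC1 in steps of 0.1, and equal numbers of each class were drawn per bin (seed 1). UMIs were summed per class and library into 8 sums, without PHC1. Genes passing edgeR's filterByExpr were fitted by the quasi-likelihood test (edgeR 4.0.16, R 4.3.3, TMM factors, library as a block, 3 residual degrees of freedom), with Benjamini-Hochberg adjustment over all genes tested and a threshold of 0.05. Iron dependence was the interaction of class and iron. Standard errors were the log2 fold change divided by the square root of F. Log2 ratios in single libraries used 0.5 added to each count. Library pairs the classes by design: deviations of the 2 sums of a library from their class means correlated at 0.73 to 0.87 over genes, and at most at 0.15 across libraries. On simulated counts of 9537 genes, 50, 48, 48 and 50 of 50 genes changed by log2 values of −2, −1, 1 and 2 were called, with 11 false calls. The simulation gave every gene the same spread, smaller than the common spread estimated in the data, and the same class effect in every library. These rates therefore do not measure recovery or false calls in the real comparison.

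Named genes were the 8 wall genes and 9 iron genes named by the study or its lists, the 15 largest increases and 10 largest decreases among genes called with at least 200 UMIs and 1 direction in all 4 libraries, and 5 genes in each direction for iron dependence. The last were FEA1, which was called, and then the genes of smallest p with 1 class direction in all 4 libraries on the TMM scale. Gene lists came from the study's supplement, and ciliary genes from acronyms in those lists, because the RefSeq table held no symbols. For the same reason lists of secretory and chaperone genes were not run. The cells, genes and lists were chosen with earlier results of these data known. Doublets stayed in (Scrublet in scanpy 1.11.5 was used for an alternative). Alternatives changed the matching, thresholds, scaling, filter, test (DESeq2 1.42.0), block, cells left out and library left out. Scaling by plain totals was added after seeing the data.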

Additional observations from a re-analysis of the deposited data

Results flagged for a closer look

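Each value below was set apart by a fixed criterion. A set of 4 libraries was examined with Dixon's 95% criterion for 60 values, and chance alone sets apart about 1 in 20 such sets.

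The share of PHC1-rich cells was 32.1% in the Fe− library of experiment 1, far from the other 3 libraries, which lay between 6.79% and 10.8%. Thinned to 1000 UMIs per cell, it was 13.9%, against 0.345% to 4.21% in the others.

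The gene Cre12.g537000, 1 of the 10 largest decreases, had a log2 ratio of −4.25 in the Fe− library of experiment 2, apart from −1.67 in the Fe− library of experiment 1 and −1.20 and −1.69 in the Fe+ libraries. That ratio rested on 0 UMIs in PHC1-rich cells and 9 UMIs in PHC1-0 cells.

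The difference of FEA1 between PHC1-rich and PHC1-0 cells was unlike in Fe− and Fe+, with a log2 interaction of 2.43 (edgeR adjusted p = 0.0333). By CPM, both Fe− libraries had a ratio above 0 and both Fe+ libraries a ratio below 0, while on the TMM scale the Fe− library of experiment 2 stood at 0.064. Over the alternatives the interaction lay between 2.14 and 2.83, and its adjusted p was under 0.05 except without the Fe+ library of experiment 2 (0.147) and without the replicate block (1.00).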

How the results depend on the processing

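No gene called with the library as block was called in the opposite direction under any alternative. The 678 genes higher and 614 lower became 1655 and 167 with CPM scaling, which was chosen after seeing the data. The number lower was 1098 without depth matching, 354 with 5 or more PHC1 UMIs as the threshold and 282 with DESeq2. Without the replicate block, edgeR called 0 genes higher, 0 lower and 0 for iron dependence, with 431 at an unadjusted p under 0.05 for the class difference. In that fit the spread among libraries enters the error, and 33 of the named genes lost their call. Leaving out 1 library gave 435 to 722 genes higher, 248 to 516 lower and 0 to 31 with iron dependence.

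The number of genes with iron dependence, 1 above, varied most: 9 without depth matching, 5 thinned, 19 with another seed, 27 with at least 2000 UMIs, 24 without dividing cells, 32 with PHC1 kept in the depth, 2 with RLE factors, 14 with CPM scaling, 42 without a filter and 25 with DESeq2. Thinned to 1000 UMIs, the share of PHC1-rich cells was 13.9% (Fe−) and 4.21% (Fe+) in experiment 1, and 0.345% (Fe−) and 1.88% (Fe+) in experiment 2.

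Among named genes, sign changes were seen for 4 that were not called. PHC76 stood at 0.088 when thinned. FEA1 stood at 0.13 without the replicate block. MSD3 stood at −0.077 with 5 or more PHC1 UMIs and −0.015 without shared barcodes. CDJ3 stood at 0.010 without depth matching, 0.052 with another seed, 0.059 with at least 2000 UMIs, 0.30 with CPM scaling, and between −0.19 and 0.17 when 1 library was left out, above 0 only without the Fe− library of experiment 1. Calls were also lost for TEF22 without likely doublets (adjusted p = 0.0617), Cre17.g708750 without dividing cells (adjusted p = 0.109) and SMC2 when the Fe− library of experiment 1 was left out (0.0657), all by edgeR. The causes were not tested. Only 2 libraries stood for each iron condition, with a shared pre-culture in each experiment, which limits the test of iron dependence, and in the highest PHC1 class of the Fe− library of experiment 2 only 20 cells were counted.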

Other observations

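Genes encoded in the organelles leaned downward in PHC1-rich cells under TMM. Of 69 chloroplast genome genes tested, 15 were lower and none higher by edgeR (median log2 fold change −0.42), beside 6.28% and 6.94% of all genes. With CPM scaling 4 were lower (median −0.064), and without the Fe+ library of experiment 1 or 2, 8 and 5. Their share of UMIs was 0.686% and 1.32% (Fe−) and 0.757% and 1.65% (Fe+) in PHC1-rich cells, against 0.615% and 1.15% (Fe−) and 0.925% and 2.23% (Fe+) in PHC1-0 cells, so the Fe− libraries were higher and the Fe+ libraries lower. Of 16 mitochondrial genome genes, 4 were lower by edgeR, none with CPM scaling, none without the Fe+ library of experiment 1 or 2, and 1 without the Fe− library of experiment 2. The share of UMIs of the mitochondrial genome was 1.14 and 1.02 (Fe−) and 0.854 and 0.990 (Fe+) times that in PHC1-0 cells.

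Genes assigned by the study to the start of the day in a diurnal cycle were called in both directions, and the balance changed with the scaling, as it did over all genes. Of 212 genes tested at 0 h, 11 were higher and 4 lower, with a median of 0.11, and of 522 at 2 h, 8 were higher and 44 lower, with a median of −0.13, beside 6.94% higher and 6.28% lower over all genes tested. With CPM scaling 50 were higher and 1 lower at 0 h, and 45 were higher and 4 lower at 2 h. With that scaling 1655 were higher and 167 lower of all 9776 genes. The number lower at 2 h was 27 and 25 without the Fe− library of experiment 1 or 2, and 18 and 8 without the Fe+ library of experiment 1 or 2. At 0 h, 6 were higher without the Fe− library of experiment 1.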
